A study of Mus musculus with 8 samples.

Results

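Endothelial cells recruit leukocytes through a set of surface molecules, and the mRNAs of 8 such molecules are described here in mouse muscles electroporated with *Uba1* siRNAs. *Icam1* was picked because its mRNA was low with *Uba1* siRNAs in these same muscles, so its values are given as a description without a test. *Icam2*, *Vcam1*, *Sele*, *Selp*, *Pecam1*, *Cdh5* and *Madcam1* were picked by their function, with earlier results of these data known. The 8 genes are among 41709 with deposited values. Levels are given as TPM, each gene's share of all transcripts after correction for transcript length. A gene was tested if it reached 1 TPM in 4 or more muscles, a filter that 7 of the 8 passed and *Madcam1* did not. *Sele* reached 1 TPM in 4 muscles with NT siRNAs and in 1 with *Uba1* siRNAs, and *Selp* in 4 and 3, so that both met this filter through the NT group.

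The tibialis anterior (TA) muscle of C57BL/6J mice, all males aged 3 months, was taken 7 days after siRNAs were electroporated. One leg of each mouse received *Uba1* siRNAs, a SMARTpool of several siRNAs against the ubiquitin-activating enzyme UBA1, and the contralateral leg received non-targeting (NT) siRNAs. Muscles of both groups were treated with hyaluronidase before electroporation. There were 4 muscles per group, and RNA of the whole muscle was sequenced, which pools muscle fibres, vessels and other cells. The NT muscles are all right and the *Uba1* muscles all left, hence siRNA and leg cannot be told apart. In 3 of the 4 *Uba1* samples a treatment tag names UBA2, UBA3 or UBA4, whereas the titles of all 4 name UBA1.

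*Uba1* mRNA, the target, was at 60.6, 59.0, 63.6 and 59.1 TPM in NT replicates 1 to 4 and at 18.1, 6.77, 15.8 and 23.1 TPM in *Uba1* replicates 1 to 4, so the groups did not overlap (exact permutation test, two-sided, p = 0.0286, the smallest p that 4 muscles against 4 allow). Transcripts of the mitochondrial genome took 42.1% to 45.7% of the TPM with NT siRNAs and 39.9% to 50.3% with *Uba1* siRNAs. Of the 11530 genes tested, 81.8% had a log2FC (log2 of TPM + 1, *Uba1* siRNAs minus NT siRNAs) above 0, and their median log2FC was 0.11. When each muscle was rescaled by its median ratio to the others, 48.0% were above 0 and the median was -0.0055. Values after this rescaling are given beside the members and lists whose direction or call depends on it. At an unadjusted P under 0.05 in limma, 16% of all genes tested were higher and 1.98% lower, and with the mouse as a block 22.4% were higher and 2.8% lower.

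Leukocytes leave blood vessels in steps. E-selectin (*Sele*) and P-selectin (*Selp*) slow passing leukocytes by binding sugars on their surface. The immunoglobulin-type molecules ICAM1, ICAM2, VCAM1 and MADCAM1 then hold them by their integrins. PECAM1 and VE-cadherin (*Cdh5*) sit at the junctions between endothelial cells, where leukocytes cross. *Sele*, *Vcam1* and *Icam1* are classical genes switched on by NF-kB in endothelium exposed to inflammatory cytokines, whereas *Icam2*, *Pecam1* and *Cdh5* are made by resting endothelium. *Icam1* and *Vcam1* are not made by endothelium alone, and P-selectin is also held by platelets.

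The sequences before the starts of these genes are shown because the members that were low with *Uba1* siRNAs include the classical NF-kB targets. RefSeq promoter sequences of the GRCm38.p6 build were matched for 4 of the 8 genes. The 250 bases before each start are printed from 5′ to 3′ on the plus strand, and capitals mark matches to GGGNNNNNCC or GGNNNTTCC (letters of NF-kB motifs) or TTCNNNGAA (letters of a STAT motif), searched on both strands. The windows are chr9:21015690-21015939 (*Icam1*), chr1:164047984-164048233 (*Sele*), chr1:164115014-164115263 (*Selp*) and chr10:79664309-79664558 (*Madcam1*).
Icam1: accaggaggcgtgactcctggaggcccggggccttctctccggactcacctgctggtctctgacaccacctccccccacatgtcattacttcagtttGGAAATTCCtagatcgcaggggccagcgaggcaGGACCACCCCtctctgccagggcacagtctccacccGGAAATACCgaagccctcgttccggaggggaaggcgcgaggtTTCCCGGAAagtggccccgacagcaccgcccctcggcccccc
Sele: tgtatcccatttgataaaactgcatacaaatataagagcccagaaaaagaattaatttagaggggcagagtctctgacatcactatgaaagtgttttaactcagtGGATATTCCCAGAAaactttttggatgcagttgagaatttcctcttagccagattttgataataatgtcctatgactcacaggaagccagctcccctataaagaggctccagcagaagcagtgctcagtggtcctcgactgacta
Selp: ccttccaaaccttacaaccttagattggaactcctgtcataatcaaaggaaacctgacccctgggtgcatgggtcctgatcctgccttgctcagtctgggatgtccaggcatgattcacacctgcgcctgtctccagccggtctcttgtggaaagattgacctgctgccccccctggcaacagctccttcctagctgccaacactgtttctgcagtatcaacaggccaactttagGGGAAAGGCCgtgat
Madcam1: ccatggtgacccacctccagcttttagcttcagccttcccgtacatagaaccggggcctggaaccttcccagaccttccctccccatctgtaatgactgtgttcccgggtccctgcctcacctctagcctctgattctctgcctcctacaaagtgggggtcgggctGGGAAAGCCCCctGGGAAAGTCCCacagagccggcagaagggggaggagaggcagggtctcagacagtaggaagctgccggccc
The *Icam1* window held GGAAATTCC from 153 to 145 bases before the start, GGACCACCCC from 120 to 111, GGAAATACC from 84 to 76 and the STAT letters TTCCCGGAA from 42 to 34. In the *Sele* window, GGATATTCCC from 145 to 136 overlapped the STAT letters TTCCCAGAA from 140 to 132. The *Selp* window held GGGAAAGGCC from 15 to 6, with a match to the shorter NF-kB letters inside it. In *Madcam1*, which was hardly detected, runs of overlapping NF-kB matches spanned bases 84 to 74 and 71 to 61. Such letters are common. GGGNNNNNCC was present in 45.8% of 32851 promoter windows of the same length, GGNNNTTCC in 15.7% and TTCNNNGAA in 7.02%. A match is a description of the letters and not a site at which a factor was measured.

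**Figure D1:**
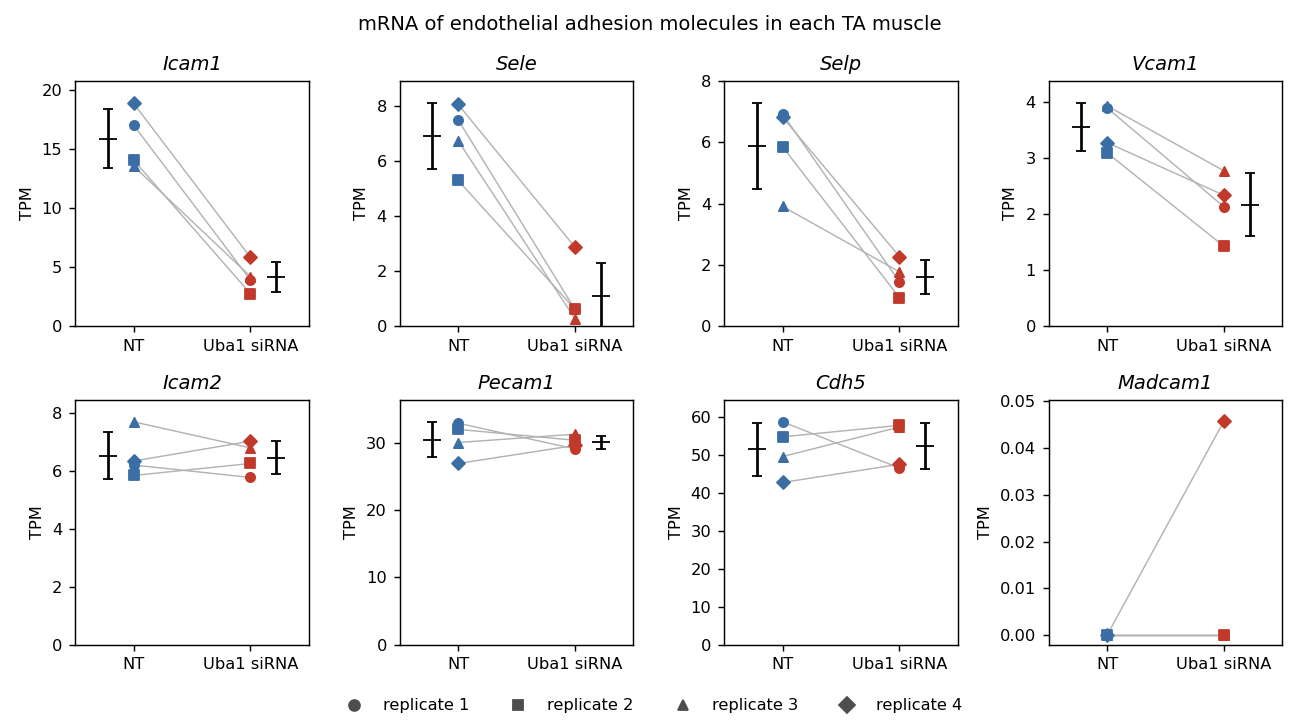
TPM of the 8 adhesion genes in each of the 8 TA muscles, with 1 panel per gene, NT siRNAs on the left and *Uba1* siRNAs on the right. Symbols mark replicates, lines join the legs of a mouse and black bars give mean ± SD (n = 4 muscles; none for *Madcam1*, and the lower bar of *Sele* with *Uba1* siRNAs ends at 0), and the groups are apart for *Icam1*, *Sele*, *Selp* and *Vcam1* and overlap for *Icam2*, *Pecam1* and *Cdh5*.

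Both selectins were lower in every muscle with *Uba1* siRNAs than in any with NT siRNAs. *Sele* lies on chromosome 1 of GRCm39 from 163867401 to 163886055 (plus strand) and encodes E-selectin, which activated endothelium makes. Its mRNA was at 7.51, 5.30, 6.75 and 8.07 TPM in NT replicates 1 to 4 and at 0.605, 0.615, 0.261 and 2.87 TPM in *Uba1* replicates 1 to 4. *Uba1* replicate 4 stood above the other 3, which were all under 1 TPM, and still below the lowest NT muscle. The means were 6.91 ± 1.20 and 1.09 ± 1.20 TPM (SD, n = 4 muscles each), 6.35-fold lower with *Uba1* siRNAs, and without *Uba1* replicate 4 the *Uba1* mean was 0.494 ± 0.202 TPM (SD, n = 3), 14.0-fold lower. The log2FC was -2.05 (95% interval -2.75 to -1.36), with an adjusted p of 0.0572 in limma with Benjamini-Hochberg adjustment over all genes tested, which misses the threshold of 0.05. With the mouse as a block, the adjusted p from limma was 0.0149, and with median-ratio scaling it was 0.0460. Since *Sele* met the filter through the NT group, these values are conditional on that filter, and with no filter on low values the adjusted p from limma was 0.131.

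*Selp* lies next to *Sele* on the same strand, from 163942833 to 163977595, and encodes P-selectin, which endothelium stores and brings to its surface within minutes of activation. NT replicates 1 to 4 had 6.92, 5.85, 3.91 and 6.82 TPM, and *Uba1* replicates 1 to 4 had 1.44, 0.927, 1.77 and 2.27 TPM. NT replicate 3 was the lowest of its group, and the highest *Uba1* muscle was below it. The means were 5.88 ± 1.40 and 1.60 ± 0.563 TPM (SD, n = 4 muscles each), a 3.67-fold difference with a log2FC of -1.40 (95% interval -1.84 to -0.97). The adjusted p by limma, Benjamini-Hochberg adjusted was 0.0522 without the block, 0.0268 with it and 0.0325 with median-ratio scaling. As for *Sele*, these values are conditional on the filter, and with no filter on low values the adjusted p from limma was 0.122. For *Sele* and *Selp* alike the exact permutation test gave p = 0.0286 (two-sided, n = 4 against 4), unadjusted for the number of genes.

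Platelets, which also hold P-selectin, were followed by 5 marker genes. Of these *Pf4* and *Ppbp* passed the filter, the latter through the NT group, since it reached 1 TPM in 4 NT muscles and 1 *Uba1* muscle. *Pf4* averaged 11.8 TPM with NT siRNAs and 11.6 TPM with *Uba1* siRNAs, and *Ppbp* 1.36 and 0.924 TPM. At an unadjusted P under 0.05 in limma 0 of the 2 were lower, and with the mouse as a block 1 was (*Ppbp*), conditional on the same filter, where 2.8% of all genes were. *Ppbp* was lower in 4 of 4 mice, as were 2.98% of all genes tested. *Pf4*, *Itga2b*, *Gp1ba* and *Gp9* were each lower in 3 of 4, for which no share of all genes was computed. The last 3 genes were under the filter. With NT and *Uba1* siRNAs *Itga2b* averaged 0.487 and 0.466 TPM, *Gp1ba* 0.0422 and 0.0181 TPM and *Gp9* 0.297 and 0.134 TPM, so their direction rests on few reads. The part of platelets in the values of *Selp* was not tested. The 5 genes summed to 9.78 to 19.4 TPM with NT siRNAs and 8.25 to 17.9 TPM with *Uba1* siRNAs.

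Of the immunoglobulin-type molecules, *Icam1* and *Vcam1* were lower with *Uba1* siRNAs and *Icam2* was not. *Icam1*, on chromosome 9 of GRCm39 from 20926672 to 20940113 (plus strand), encodes the ligand of the leukocyte integrins LFA-1 and Mac-1. It was at 17.1, 14.1, 13.6 and 18.9 TPM in NT replicates 1 to 4 and at 3.90, 2.74, 4.20 and 5.83 TPM in *Uba1* replicates 1 to 4. Every *Uba1* muscle was below every NT muscle, the pattern for which the gene was picked. The means of 15.9 ± 2.52 and 4.17 ± 1.27 TPM (SD, n = 4 muscles each) differed 3.82-fold, and the log2FC was -1.73.

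*Vcam1* lies on chromosome 3 from 115903598 to 115923355 (minus strand) and encodes the endothelial ligand of the integrin VLA-4. NT replicates 1 to 4 were at 3.89, 3.09, 3.93 and 3.27 TPM and *Uba1* replicates 1 to 4 at 2.12, 1.42, 2.77 and 2.33 TPM. The groups did not overlap, but the gap between the lowest NT muscle and the highest *Uba1* muscle was small. The means were 3.54 ± 0.427 and 2.16 ± 0.561 TPM (SD, n = 4 muscles each), 1.64-fold lower with *Uba1* siRNAs (exact permutation test, two-sided, p = 0.0286). Its log2FC of -0.54 (95% interval -0.84 to -0.23) did not pass in limma with Benjamini-Hochberg adjustment, with an adjusted p of 0.150 without the block and 0.0609 with it.

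*Icam2*, on chromosome 11 from 106263312 to 106278943 (minus strand), encodes a second LFA-1 ligand, which endothelium carries at rest. It was at 6.19, 5.83, 7.69 and 6.33 TPM in NT replicates 1 to 4 and at 5.77, 6.25, 6.79 and 7.02 TPM in *Uba1* replicates 1 to 4. The groups overlapped, and 2 of the 4 mice had the lower value in the leg with *Uba1* siRNAs. The log2FC was -0.0083 (95% interval -0.22 to 0.20, adjusted p = 0.967 by limma, Benjamini-Hochberg adjusted), so a difference of the size seen for *Vcam1* lay outside its interval. *Madcam1*, the integrin ligand of gut vessels, on chromosome 10 from 79500209 to 79504371 (plus strand), was listed at 0 in 7 muscles and at 0.0458 TPM in *Uba1* replicate 4, and no fold change was computed.

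The junction molecules had nearly the same level in both groups. *Pecam1*, on chromosome 11 from 106543689 to 106641454 (minus strand), encodes a homophilic adhesion molecule of endothelium, platelets and leukocytes. It was at 32.9, 32.0, 30.0 and 26.9 TPM in NT replicates 1 to 4 and at 29.1, 30.3, 31.3 and 29.6 TPM in *Uba1* replicates 1 to 4. All *Uba1* muscles fell within the range of the NT muscles. The log2FC was -0.014 (95% interval -0.18 to 0.15, adjusted p = 0.926 by limma, Benjamini-Hochberg adjusted).

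*Cdh5*, on chromosome 8 from 104828231 to 104871143 (plus strand), encodes VE-cadherin, the cadherin that joins endothelial cells. NT replicates 1 to 4 had 58.7, 54.8, 49.6 and 42.7 TPM, and *Uba1* replicates 1 to 4 had 46.5, 57.8, 57.4 and 47.5 TPM. The *Uba1* muscles again lay inside the NT range. The log2FC was 0.026 (95% interval -0.23 to 0.28, adjusted p = 0.911 by limma, Benjamini-Hochberg adjusted), and it turned to -0.10 with median-ratio scaling.

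**Figure D2:**
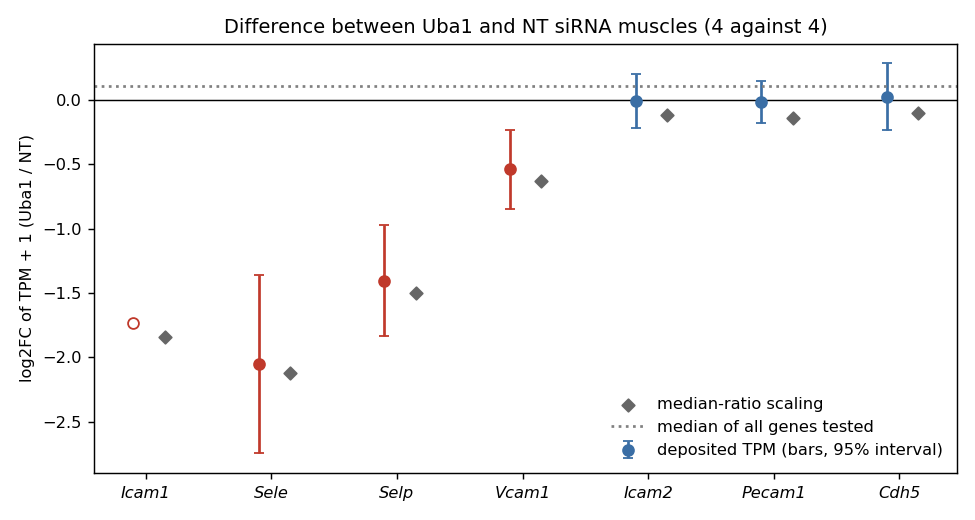
The log2FC of TPM + 1 (*Uba1* siRNAs minus NT siRNAs, 4 muscles each) of the 7 adhesion genes that passed the filter, with 95% limma intervals as bars. *Icam1*, picked for its value, has an open marker and no interval, grey diamonds give the values with median-ratio scaling, and the dotted line marks the median of all genes tested (0.11). The intervals of *Sele* (-2.75 to -1.36), *Selp* and *Vcam1* lie below 0 and those of *Icam2*, *Pecam1* and *Cdh5* span it.

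Counted over the 6 tested genes other than *Icam1*, 0 were past an adjusted p of 0.05 from limma without the block, where 0.026% of all genes tested were lower and past it. At an unadjusted P under 0.05 in limma, 3 were lower (*Sele*, *Selp* and *Vcam1*), against the 1.98% of all genes. With the mouse as a block, *Sele* and *Selp* passed, where 0.304% of all genes were lower and past the threshold. By the rule that the study used (P below 0.05 before adjustment and an absolute log2FC above 0.58), 2 were lower (*Sele* and *Selp*) against 0.833% of all genes, and *Vcam1* was just short of the log2FC limit but past it with median-ratio scaling (log2FC -0.63). In 3 of the 6 the groups did not overlap, all lower, as in 1.01% of all genes, and the same 3 were lower in 4 of 4 mice, as in 2.98% of all genes. The 6 had a median log2FC of -0.28. Since *Sele* and *Selp* met the filter through the group in which they are high, these counts are given as a description of single genes and not as evidence about the whole group. Ordered from the lowest log2FC of the 11530 genes, *Sele* was number 6, *Icam1* number 10, *Selp* number 16 and *Vcam1* number 141.

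The size of the difference varied between mice. In the leg with *Uba1* siRNAs, *Icam1* was at 22.9%, 19.5%, 30.9% and 30.8% of the NT leg in replicates 1 to 4, and *Vcam1* at 54.6%, 46.0%, 70.4% and 71.2%. *Sele* was at 8.06%, 11.6%, 3.87% and 35.6%, and *Selp* at 20.8%, 15.8%, 45.3% and 33.2%. *Icam1* and *Vcam1* were thus lowest, relative to the other leg, in replicates 1 and 2, whereas *Sele* was lowest in replicate 3, in which *Selp* was highest. *Uba1* itself was at 29.8%, 11.5%, 24.8% and 39.1%, lowest in replicate 2 and highest in replicate 4. *Cdh5* ranged from 79.2% to 116% and *Pecam1* from 88.4% to 110%.

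**Figure D3:**
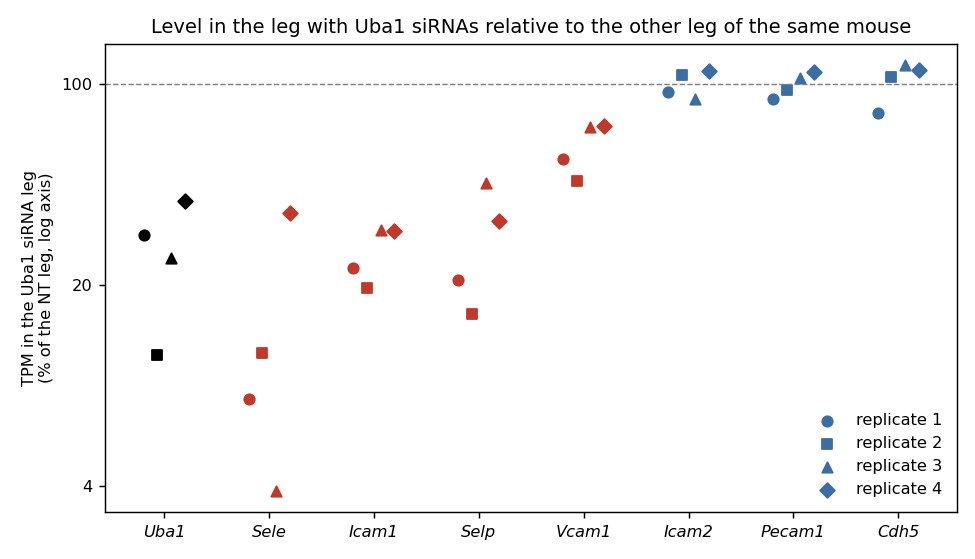
TPM in the leg with *Uba1* siRNAs as a percent of the NT leg of the same mouse, on a log axis, for 7 adhesion genes and for *Uba1* (black), with 1 point per mouse (replicates 1 to 4). *Icam1*, *Sele*, *Selp* and *Vcam1* are under 100% in all 4 mice, with *Sele* spanning 3.87% to 35.6%, and *Icam2*, *Pecam1* and *Cdh5* lie on both sides of it.

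TPM are values per transcript length and allow the genes to be placed in order within a group. With NT siRNAs the order of mean TPM was *Cdh5*, *Pecam1*, *Icam1*, *Sele*, *Icam2*, *Selp*, *Vcam1* and *Madcam1*. The ranges of *Sele*, *Icam2*, *Selp* and *Vcam1* overlapped from each to the next, while the ranges of the other neighbours did not. With *Uba1* siRNAs the order was *Cdh5*, *Pecam1*, *Icam2*, *Icam1*, *Vcam1*, *Selp*, *Sele* and *Madcam1*, so *Icam1* had moved below *Icam2* and *Sele* to the last place among the genes detected in all muscles. Here neighbours from *Icam2* down to *Sele* overlapped in range. In estimated reads, *Icam1* had 1010 to 1363 per muscle with NT siRNAs and 213 to 440 with *Uba1* siRNAs, and *Sele* 315 to 454 and 14 to 167. The single *Madcam1* value corresponds to 1 read. These estimates scale with the gene lengths taken from GENCODE, and the level of *Sele* with *Uba1* siRNAs thus rests on few reads in some muscles.

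The inducible members were also low relative to the endothelial junction genes, a comparison in which the scaling of the TPM largely cancels. The log2 ratio of *Icam1* to the mean of *Pecam1* and *Cdh5* was -1.27 ± 0.315 in NT muscles and -3.01 ± 0.420 in *Uba1* muscles (SD, n = 4 each). The corresponding ratio of *Sele* differed by -2.06 between the groups, that of *Selp* by -1.41 and that of *Vcam1* by -0.54 (exact permutation tests, two-sided, p = 0.0286 each, of 4 such tests, while sign flips within the 4 mice gave p = 0.125, the smallest they allow). The ratio of *Icam2* differed by -0.014 (exact permutation test, p = 0.971). These p-values are not adjusted for the number of tests, *Icam1* was picked for its fall, and *Sele* and *Selp* met the filter through the NT group. *Vcam1* met the filter in both groups, but it too was chosen with earlier results of these data known. Its adjusted p from limma was 0.150 without the block and 0.0609 with it. In RNA of a whole muscle, fewer cells that make a transcript and less of it per cell cannot be told apart. Endothelial markers, 22 genes outside the 8, all passed the filter and 0 met an adjusted p of 0.05 in limma, with 1 higher and 1 lower at an unadjusted P under 0.05 (16% and 1.98% of all genes). They summed to 237 to 316 TPM with NT siRNAs and 264 to 294 TPM with *Uba1* siRNAs, and their median log2FC was 0.081 against 0.11 for all genes, turning to -0.043 against -0.0055 with median-ratio scaling.

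*Icam1* was compared with all other tested genes by the Pearson correlation of log2(TPM + 1) over the 8 muscles, which the difference between groups dominates. The 5 genes most like it, all at r = 0.98, were *Selp*, *Rela*, *Irf1*, *Nuak2* and *Ccl2*. *Sele* (r = 0.96) ranked number 9 and *Vcam1* (r = 0.88) number 53. After the mean of each group was taken off, which leaves the differences between muscles of one group, *Selp* was still near *Icam1* (r = 0.89, number 26 of 11529 genes), while *Sele* (r = 0.70) was number 354 and *Vcam1* (r = 0.53) number 993. The 5 highest were then *Zfp108* (r = 0.99), *Pcca* (0.98), *Nub1* (0.96), *Taf7* (0.96) and *Ephx1* (0.94). The junction genes *Pecam1* and *Cdh5* were close to each other on this scale (r = 0.91) and not to *Icam1* (r = -0.30 and -0.49). All these points share libraries and legs of the same mice, and the values are given without a test.

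Regulators of these adhesion molecules were followed in a list of 38 cytokines, receptors, signal proteins and transcription factors, of which 34 were tested. Of these, 7 met the study's rule on P (below 0.05 before adjustment) and log2FC (beyond 0.58), all lower, where 0.833% of all genes were lower and 0.442% higher, and of the 34 only *Irf1* passed an adjusted p of 0.05 from limma. The 7 are not all activators, since they hold cytokines, a transcription factor induced by interferon, the NF-kB inhibitors encoded by *Nfkbia*, *Nfkbie* and *Tnfaip3*, which NF-kB itself switches on, and *Klf2*, a factor that keeps endothelium quiescent. *Il6*, *Tnf* and *Nfkbie* reached 1 TPM in 4 NT muscles and in only 1, 2 and 3 *Uba1* muscles, so they met the filter through the group in which they are high, and the count is a description of single genes. With median-ratio scaling 8 met the rule, *Klf4* being the further one (log2FC -0.68, against -0.56 without that scaling). The median log2FC of the 34 was -0.027 against 0.11 for all genes, and -0.14 against -0.0055 with median-ratio scaling.

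Among the cytokines, *Il6* averaged 4.23 ± 1.63 TPM in NT muscles and 0.760 ± 0.521 TPM in *Uba1* muscles (SD, n = 4 each), with a log2FC of -1.56 (adjusted p = 0.0909 by limma, Benjamini-Hochberg adjusted). *Tnf*, the classical inducer of E-selectin and VCAM1, averaged 2.82 ± 1.23 and 1.44 ± 0.759 TPM, with a log2FC of -0.65 (adjusted p = 0.238 from limma). *Irf1*, a transcription factor of interferon responses, fell from 11.7 ± 0.560 to 5.58 ± 0.618 TPM (log2FC -0.95, adjusted p = 0.00429 from limma). Of the inhibitors, *Tnfaip3* averaged 10.3 ± 2.49 and 3.86 ± 1.25 TPM (log2FC -1.23, adjusted p = 0.0644 from limma), *Nfkbie* had a log2FC of -0.83 and *Nfkbia* of -0.69. *Klf2* averaged 42.5 ± 5.51 TPM with NT siRNAs and 26.6 ± 6.17 TPM with *Uba1* siRNAs. All 7 were lower in 4 of 4 mice, as were 2.98% of all genes tested. Because the 7 were called for being lower in these muscles, this largely restates the call. *Rela*, the NF-kB subunit p65, averaged 18.2 ± 0.221 and 14.4 ± 0.962 TPM, a log2FC of -0.32 that is short of the limit of 0.58 (adjusted p = 0.120 from limma).

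**Figure D4:**
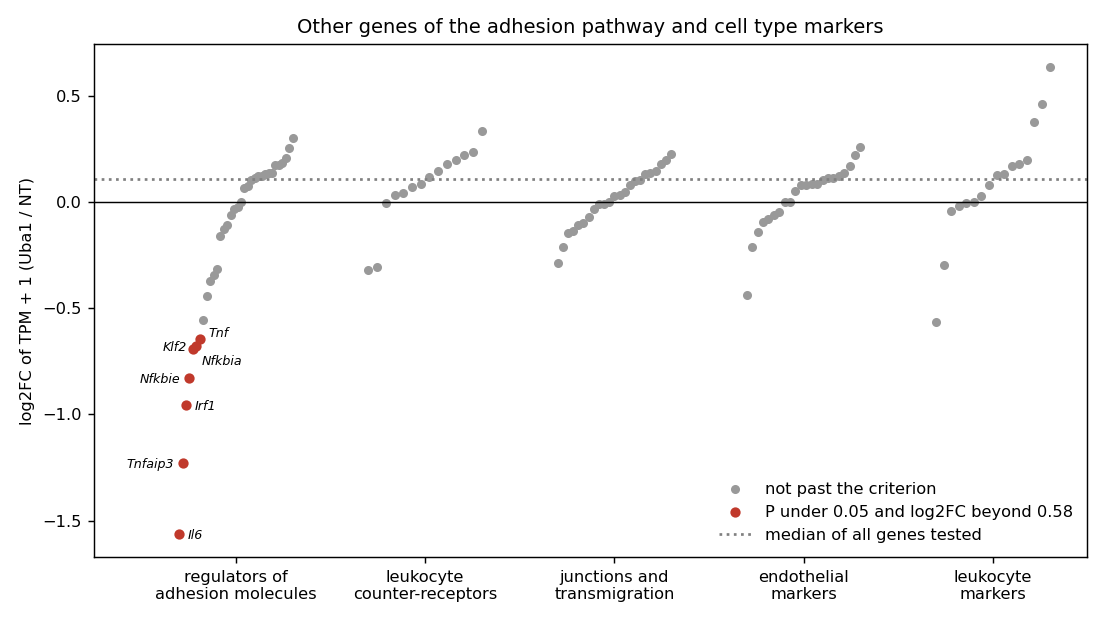
The log2FC of TPM + 1 (*Uba1* siRNAs minus NT siRNAs) of every tested gene of 5 lists, with 1 point per gene sorted within its list and the median of all genes tested as a dotted line (0.11). Red points met the rule on P (below 0.05 before adjustment) and log2FC (beyond 0.58), and all 7 of them are regulators of adhesion molecules, while the other 4 lists have none.

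A further list held 23 genes for the binding partners of the adhesion molecules, namely integrin subunits, selectin ligands and the enzymes that build their sugars. Not all of these are confined to leukocytes, and which cells of the muscle made their transcripts was not tested. Of the 23, 14 were tested, and 0 met an adjusted p of 0.05 in limma or the limit of 0.58 with an unadjusted P under 0.05. At that P alone 1 was higher, where 16% of all genes were. With the mouse as a block 2 were higher (*Cd24a* and *B4galt1*) and 1 was lower (*Itga4*), where 22.4% and 2.8% of all genes were. The median log2FC of the 14 was 0.10 (-0.018 with median-ratio scaling). *Itgb2*, the shared chain of LFA-1 and Mac-1, averaged 4.40 ± 2.15 TPM in NT muscles and 4.39 ± 2.29 TPM in *Uba1* muscles (SD, n = 4 each). *Itgam* averaged 1.94 ± 0.775 and 2.43 ± 1.19 TPM, and *Itgal*, under the filter, 0.702 ± 0.244 and 0.650 ± 0.296 TPM. *Itga4*, the VLA-4 chain that binds VCAM1, averaged 3.75 ± 0.730 and 2.83 ± 0.787 TPM and was lower in 4 of 4 mice (log2FC -0.32, adjusted p = 0.320 by limma, Benjamini-Hochberg adjusted, and 0.138 with the mouse as a block). Its partner *Itgb1*, made by many cells, averaged 115 ± 10.3 and 123 ± 20.2 TPM. *Itgb7*, which serves in the MADCAM1 receptor, averaged 1.34 ± 0.188 and 1.62 ± 0.543 TPM, and *Selplg*, the P-selectin ligand of leukocytes, 1.84 ± 0.696 and 2.29 ± 0.748 TPM. *Cd24a* (log2FC 0.33) and *B4galt1* had adjusted p-values of 0.240 and 0.322 from limma.

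Of 26 other molecules of endothelial junctions and leukocyte passage, 23 were tested and 0 met either criterion in limma, 2 being higher at an unadjusted P under 0.05 (16% of all genes), with a median log2FC of 0.029 (-0.096 with median-ratio scaling). The smallest P belonged to *Jam3* (6.09 and 7.15 TPM with NT and *Uba1* siRNAs), *Jam2* (13.5 and 15.9 TPM) and *Ctnnb1*, which encode junctional adhesion molecules and beta-catenin, with adjusted p-values of 0.232, 0.234 and 0.293 by limma, Benjamini-Hochberg adjusted. Across these pathway lists together, 7 of 71 tested genes were lower past the unadjusted criterion and 0 were higher, against 0.833% and 0.442% of all genes, the 7 being the regulators above with the same limit from the filter. The median log2FC of the 71 was 0.033, and -0.066 with median-ratio scaling.

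Markers of other cells that can carry these molecules are given beside the members. Of 26 leukocyte markers 16 passed the filter, and 0 met an unadjusted P of 0.05 in limma. The 26 summed to 172 to 456 TPM with NT siRNAs and 179 to 512 TPM with *Uba1* siRNAs. *Lyz2* alone averaged 168 and 174 TPM, so a large part of the sum is this gene. The median log2FC of the 16 was 0.10, and -0.016 with median-ratio scaling. With the mouse as a block 1 of the 16 met the study's rule, namely *S100a8*, a neutrophil gene, which was higher (log2FC 0.63, adjusted p = 0.188 in limma with the block), where 0.538% of all genes were. *Ptprc*, the gene of the pan-leukocyte antigen CD45, averaged 0.937 and 1.19 TPM, while the T-cell, B-cell and NK-cell markers and *Ly6g* stayed under the filter. Markers of fibroblasts, mural cells and satellite cells, of which 13 of 14 were tested, summed to 506 to 806 and 624 to 941 TPM, and 0 met an adjusted p of 0.05 in limma (1 was higher at an unadjusted P under 0.05, and 4 with the mouse as a block, where 22.4% of all genes were). The 10 muscle fibre markers, of which 0 met an unadjusted P of 0.05 in limma, summed to 116378 to 125426 TPM with NT siRNAs and 94372 to 127065 TPM with *Uba1* siRNAs. The part of these cells in the values of the adhesion genes was not tested.

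Some members share bases with a gene on the other strand, and the library kit does not mark strand. *Icam2* overlaps *Prr29* over 1818 exon bases, and *Prr29* was listed at 3.48 to 4.20 TPM with NT siRNAs and 2.06 to 4.44 TPM with *Uba1* siRNAs, so the level of *Icam2* is uncertain to that extent. *Icam1* overlaps *Gm47079* over 511 bases, which was listed at 0.0575 TPM or less, and *Selp* overlaps *Gm16548* over 919 bases, which was listed at 0 in all muscles. *Selp* also overlaps *Gm69625* over 230 bases and *Cdh5* overlaps *Gm64067* over 87 bases, and neither of these genes has a listed level. *Vcam1* overlaps *Gm43109* over 61 bases, which was listed at 0.0849 TPM or less.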

How the data were processed

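The TPM values of 41709 genes in 8 TA muscles were computed and deposited by the authors, who trimmed paired-end reads and used CLC Genomics Workbench for alignment to GRCm39. The annotation and the handling of reads that match several genes are not given in the sources used here. TPM keep no depth, so reads per gene were estimated from the value of 1 read and GENCODE M39 exon lengths, and no counting interval is given.

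The 11530 genes that reached 1 TPM in 4 or more muscles were tested on log2(TPM + 1), which understates changes of low genes, with limma 3.58.1 (lmFit, eBayes with a trend) in R 4.3.3, without covariates and with Benjamini-Hochberg adjustment. The study's test was Kruskal-Wallis with Dunn's test. With 4 muscles against 4 the smallest p of the Kruskal-Wallis test is 0.0209, which became 0.180 after adjustment over all genes tested here, so limma was used instead. For single values, exact two-sided permutation tests over muscles were used. The limma step was tested on simulated data.

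Equal replicate numbers mark the legs of 1 mouse, per the labels and the study's methods. The correlations of their deviations from the group means over all genes tested were -0.00037, 0.20, 0.58 and 0.54 in replicates 1 to 4, and the fit with the mouse as a block is given beside the members and marker lists whose call it changes.

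The members and all gene lists were chosen with earlier results of these data known. Genes named are the members, the list genes with an unadjusted P below 0.05 and an absolute log2FC above 0.58 (otherwise up to 3 per list with the smallest P), known counter-receptors, the 5 genes most like *Icam1* by each measure, and *Uba1*. Markers were named as lists, and *Rela*, *Ptprc*, *S100a8*, *Lyz2* and the platelet genes were picked from them after their values were seen. Alternatives were a pseudocount of 0.1, other filters, median-ratio and quantile scaling, TPM without mitochondrial genes, the block, the Kruskal-Wallis test, a linear model without moderation, and leaving out each muscle. Promoter windows come from RefSeq (GRCm38.p6), and gene positions from GENCODE M39 (GRCm39).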

Additional observations from a re-analysis of the deposited data

Results flagged for a closer look

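*Sele* stood at 2.87 TPM in *Uba1* replicate 4, far from the other 3 *Uba1* muscles (0.261 to 0.615 TPM). Without this muscle its log2FC was -2.40 (adjusted p = 0.000735 by limma, Benjamini-Hochberg adjusted). The muscle was singled out after its value was seen and lay nearest the NT group, so leaving it out could only widen the difference. *Sele* also met the filter through the NT group. With all muscles the adjusted p from limma was 0.0572, and with no filter on low values it was 0.131. *Madcam1* was listed at 0.0458 TPM in *Uba1* replicate 4 and at 0 in the other 3, which is 1 estimated read. In all, 15 groups of 4 muscles were searched, and chance sets a muscle apart in about 5% of such groups.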

How the results depend on the processing

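Of the 6 tested members other than *Icam1*, the 0 past an adjusted p of 0.05 in limma became 2 under median-ratio scaling and 2 under quantile normalization, 1 when mitochondrial genes were taken out of the TPM, 2 with the replicate block (mouse) and 3 with the block and median-ratio scaling together, where *Vcam1* passed too (adjusted p = 0.0434). With single muscles left out the count ran from 0 to 2, being 1 without NT replicate 3 (*Selp*, adjusted p = 0.0300) and 2 without *Uba1* replicate 4 (*Sele*, 0.000735, and *Selp*, 0.0221). Both genes met the filter through the NT group, so these counts are conditional on it. With no filter on low values the adjusted p from limma was 0.131 for *Sele* and 0.122 for *Selp*. The 2 past the study's rule (unadjusted P below 0.05, absolute log2FC above 0.58) became 0 with a filter at a mean of 5 TPM, which removes *Sele* and *Selp*, and 3 (with *Vcam1*) at a pseudocount of 0.1, under median-ratio scaling with or without the block, under quantile normalization and without mitochondrial genes, and 2 to 3 with single muscles left out. At an unadjusted P under 0.05 the block moved 12 list genes, the regulators going from 10 lower and 2 higher to 12 and 5 of 34, where 1.98% of all genes were lower and 16% higher without the block and 2.8% and 22.4% with it. With the Kruskal-Wallis test and with a linear model without moderation, 0 members passed an adjusted p of 0.05 (*Sele* 0.180 and 0.123, *Selp* 0.180 and 0.115). The 7 pathway genes past the study's rule became 4 with the filter at a mean of 5 TPM, 8 under median-ratio scaling with or without the block and under quantile normalization, 6 with the Kruskal-Wallis test and the linear model without moderation, and 5 to 8 with single muscles left out. The log2FC ran from -3.01 to -1.86 for *Sele*, -1.84 to -1.27 for *Selp*, -1.94 to -1.59 for *Icam1* and -0.72 to -0.41 for *Vcam1*, below 0 under all alternatives run. Across these, the adjusted p ran from 0.000735 to 0.230 for *Sele*, 0.0221 to 0.230 for *Selp* and 0.0434 to 0.351 for *Vcam1*. For *Icam1* the sign only describes the values by which the gene was picked. The members near 0 changed sign. *Icam2* turned to 0.0086 and *Pecam1* to 0.0035 without mitochondrial genes, and *Cdh5* to -0.10 with median-ratio scaling (with or without the block) and to -0.055 with quantile normalization. With single muscles left out *Icam2* ran from -0.052 to 0.064, *Pecam1* from -0.070 to 0.023 and *Cdh5* from -0.058 to 0.092, and the cause was not tested. In the ratios to *Pecam1* and *Cdh5*, an exact sign-flip test over pairs (replicate block) gave p = 0.125, the smallest that 4 pairs allow, for *Sele* (-2.06), *Selp* (-1.41) and *Vcam1* (-0.54). No ratio of *Madcam1* was computed, since it was listed at 0 in 7 muscles. Precision is limited by 4 muscles per group, by few estimated reads of *Sele* with *Uba1* siRNAs, and by the lack of strand in the libraries.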
